A study of Mus musculus with 70 samples.

Results

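The 34 genes described here carry glucose into cells, break it down to lactate, and sense or answer low oxygen. They were taken as every row of the 10 deposited expression tables whose gene symbol is one of 34 named symbols, and all 34 were found among the 45634 gene names shared by the femur and ulna tables. By role they are 3 glucose and lactate carriers, 6 genes of upper glycolysis, 2 regulators of phosphofructokinase, 10 genes of lower glycolysis, 3 genes that decide the fate of pyruvate, 4 oxygen-sensing factors and sensors, and 6 other genes known as hypoxia-induced.

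RNA was sequenced from bones of female c57bl/6 mice aged 12 weeks, with no transgene or drug named in the labels. Right femurs that had been broken fully across, a full fracture that is known to heal through cartilage, were collected 4 h, 1 d, 3 d, 7 d and 14 d after injury (5 libraries at each time), and intact left femurs served as their controls (10 libraries). Right ulnas cracked in part by loading, a stress fracture that is known to heal mainly by direct bone formation, were collected at 4 h (5 libraries), 1 d (4), 3 d (5), 5 d (5) and 7 d (4), with intact left ulnas as controls (9 libraries). The sample titles give 50 animal numbers, 20 of them with 2 limbs, while the series text counts 70 mice. By the titles, the intact bones came from mice whose other limb was injured. An effect of that injury on the intact bones was not tested, and the fit treated all libraries as independent. A 7 mm piece of femur with the marrow spun out, or a 5 mm piece of ulna with no such step named, was ground whole. The time labels nevertheless name callus for femurs at 7 d and 14 d and periosteum for the other injured groups.

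Glycolysis splits glucose into pyruvate, and lactate dehydrogenase turns pyruvate into lactate when oxygen or mitochondrial capacity is short. The factor HIF-1 is made of an oxygen-labile alpha subunit, which prolyl hydroxylases mark for destruction when oxygen is present, and a stable beta subunit, and it turns on glucose carriers and most glycolytic genes. Growth cartilage and early callus have few vessels, and chondrocytes are known to depend on Hif1a and on glycolysis. Several steps of the pathway have 1 isozyme typical of skeletal muscle and another typical of most other cells.

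HIF-1 is known to bind a short core, ACGTG or GCGTG. Of the 34 genes, 31 had an entry in the RefSeq promoter table (GRCm38.p6), which gives 250 bases before to 50 after a start site, and 25 of these 31 (80.6%) held ACGTG or GCGTG on either strand of the entry listed first. Of all 27025 genes in the table, 43.8% held either core. Apart, ACGTG stood in 17 members and in 19.7% of all promoters, and GCGTG in 17 members and in 32.5% of all promoters. Such a match is a description of letters and not a bound site. Cores also stood in members that rose in none of the 10 comparisons, namely Bnip3, Ldha, Pfkm, Pdk1, Egln1, Ldhb and Eno3. Aldoa, Tpi1 and Pgam2, which did not rise either, held none. The promoters of the 6 genes with the highest median change over the 10 comparisons are shown because their increases lead the results. They lie at chr12:73907617-73907916 on the plus strand (Hif1a), chr10:59323046-59323345 plus (P4ha1), chr11:78322823-78323122 plus (Aldoc), chr19:41911621-41911920 plus (Pgam1), chr13:6648722-6649021 minus (Pfkp) and chr4:150236458-150236757 plus (Eno1). Each is printed 5′ to 3′ along its gene, and capitals mark every ACGTG or GCGTG, or the reverse complement of either, with overlapping matches joined.
Hif1a: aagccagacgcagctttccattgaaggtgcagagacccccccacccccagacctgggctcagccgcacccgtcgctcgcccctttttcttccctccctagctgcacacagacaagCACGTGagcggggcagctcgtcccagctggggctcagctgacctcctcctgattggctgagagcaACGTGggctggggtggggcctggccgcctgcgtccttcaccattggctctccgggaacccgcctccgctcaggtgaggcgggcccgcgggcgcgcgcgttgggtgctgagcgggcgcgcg
P4ha1: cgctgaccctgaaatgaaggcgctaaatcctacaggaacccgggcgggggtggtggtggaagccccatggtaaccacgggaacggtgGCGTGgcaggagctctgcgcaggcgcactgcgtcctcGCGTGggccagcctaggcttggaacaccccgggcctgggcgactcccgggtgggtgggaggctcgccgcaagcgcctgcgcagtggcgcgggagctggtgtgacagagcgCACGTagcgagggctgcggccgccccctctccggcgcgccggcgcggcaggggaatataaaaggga
Aldoc: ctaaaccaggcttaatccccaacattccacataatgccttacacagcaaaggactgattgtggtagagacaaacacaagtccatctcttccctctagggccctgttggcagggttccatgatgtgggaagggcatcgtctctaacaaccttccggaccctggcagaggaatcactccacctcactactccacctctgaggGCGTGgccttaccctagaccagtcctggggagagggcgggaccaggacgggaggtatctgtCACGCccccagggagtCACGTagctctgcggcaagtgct
Pgam1: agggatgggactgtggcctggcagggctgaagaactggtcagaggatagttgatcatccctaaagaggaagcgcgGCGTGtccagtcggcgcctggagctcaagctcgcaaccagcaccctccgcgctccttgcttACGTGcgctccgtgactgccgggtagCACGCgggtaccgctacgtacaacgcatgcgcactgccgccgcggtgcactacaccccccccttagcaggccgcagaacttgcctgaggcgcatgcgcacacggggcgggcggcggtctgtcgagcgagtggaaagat
Pfkp: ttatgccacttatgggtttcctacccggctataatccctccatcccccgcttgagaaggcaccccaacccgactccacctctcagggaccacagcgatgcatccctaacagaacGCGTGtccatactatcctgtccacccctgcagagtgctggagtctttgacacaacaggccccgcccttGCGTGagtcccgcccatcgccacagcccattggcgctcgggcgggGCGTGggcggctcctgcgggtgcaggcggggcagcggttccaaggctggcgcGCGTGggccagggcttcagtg
Eno1: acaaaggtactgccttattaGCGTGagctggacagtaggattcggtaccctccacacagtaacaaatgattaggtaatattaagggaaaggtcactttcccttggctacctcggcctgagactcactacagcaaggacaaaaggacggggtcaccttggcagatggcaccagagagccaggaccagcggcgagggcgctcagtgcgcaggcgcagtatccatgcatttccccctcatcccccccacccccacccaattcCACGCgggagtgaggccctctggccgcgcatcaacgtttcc

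Levels are given as scaled RPKM, the deposited RPKM (reads per kilobase of transcript per M assigned reads) divided by 1 factor per library. Changes are differences of group means of log2(scaled RPKM + 0.1), with the standard error of a limma fit. A gene "rose" or "fell" where its adjusted p, by the Benjamini-Hochberg method across every gene tested in that comparison, was under 0.05. The 67 libraries held 8.12 to 30.8 M assigned reads (median 16.4 M), and the p-values measure the spread between these libraries. In whole bone pieces, fewer cells of a type and less RNA per cell cannot be told apart. All 7 osteoblast markers examined were above 0 in every library, with summed levels of 521 to 2676 scaled RPKM in intact ulnas and 2713 to 9310 in intact femurs. The same 10 intact femurs enter all 5 full fracture comparisons, and the same 9 intact ulnas all 5 stress fracture comparisons.

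Some members have near copies elsewhere in the genome, and the sources used here do not say whether reads matching several places were counted. In 11 members more than 10% of the 50-base stretches of their transcripts also occur in another gene, led by Pgk1 (68.0%), Bnip3 (59.1%), Gapdh (58.4%), Eno1 (49.5%) and Pgam1 (41.5%). Absolute levels of these genes are therefore uncertain, and so is any ratio of them to an isozyme. Gapdh, for example, was listed at only 11.6 ± 2.81 scaled RPKM in intact femurs (SD, n = 10), and Pgam1 had a median of 46.5 reads per library.

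After full fracture the 34 genes moved in both directions, with more rises than falls at 4 h and 1 d and more falls than rises at 3 d and 14 d. At 4 h, 17 rose and 4 fell, with a median log2 change of 0.43 against -0.04 over all 19944 genes tested, of which 28.3% rose and 28.5% fell. At 1 d, 17 rose and 10 fell (median 0.41), beside 26.7% of all genes up and 24.8% down. At 3 d, 8 rose and 18 fell (median -0.38), beside 28.8% up and 28.0% down. At 7 d, 12 rose and 12 fell (median 0.04), beside 32.5% up and 33.6% down. At 14 d, 6 rose and 21 fell (median -0.78), beside 28.9% up and 27.0% down. The rises at 4 h and 1 d and the falls at 3 d and 14 d took larger shares of the members than of all genes, while at 7 d both shares were near those of all genes. Of the 34 members, 21 had their highest change at 4 h, 11 at 7 d and 2 at 1 d, beside 34.9%, 25.3% and 12.1% of all genes. Their lowest change fell at 14 d in 21 and at 3 d in 9, beside 18.8% and 13.7% of all genes.

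After stress fracture the changes were fewer, smaller and mostly downward. At 4 h, 3 rose and 1 fell (median 0.07), beside 5.51% of 20506 genes up and 5.19% down. At 1 d, 2 rose and 3 fell (median -0.16), beside 8.83% up and 3.98% down. At 3 d, 5 rose and 17 fell (median -0.34), beside 20.2% up and 17.6% down. At 5 d, 4 rose and 16 fell (median -0.31), beside 22.3% up and 20.9% down, and at 7 d, 2 rose and 15 fell (median -0.36), beside 18.5% up and 16.0% down. Single libraries decided part of these counts. The number called at 1 d was 3 without library 1 and 3 without library 2 in place of 5, at 5 d it was 10 without library 3 in place of 20, and at 7 d it was 9 without library 5 in place of 17. Of the 34 members, 27 never rose after stress fracture, beside 68.3% of all genes, and 12 never rose after full fracture, beside 44.4%.

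**Figure D1:**
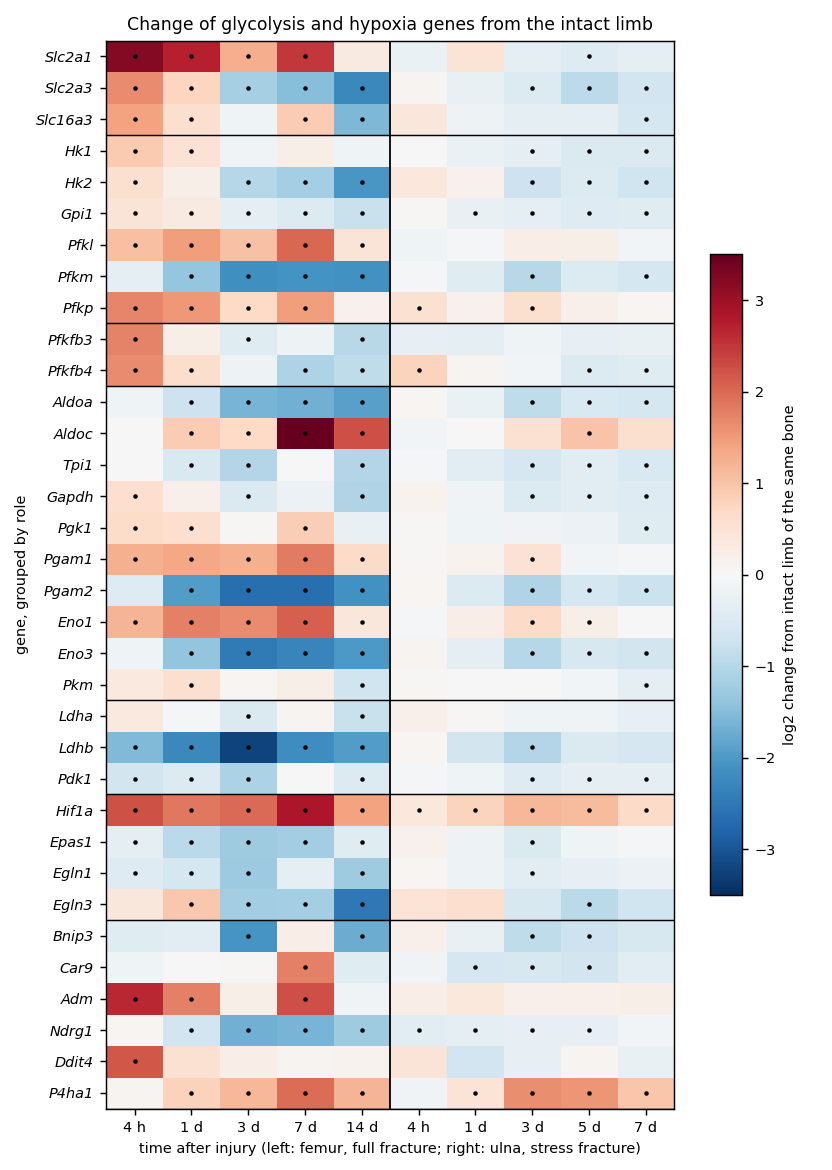
Log2 change of each of the 34 genes (rows, grouped by role) from the intact limb of the same bone at each time (columns), femur left and ulna right, where red is higher and blue lower after injury and a dot marks adjusted p under 0.05. Hif1a is dotted in all 10 columns, and Slc2a1 runs from 3.20 at 4 h after full fracture to 0.31 at 14 d.

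All 3 glucose and lactate carriers rose at 4 h and 1 d after full fracture. Slc2a1, the widely expressed carrier GLUT1 (chromosome 4, 119108711 to 119137983, GRCm38), was at 66.0, 43.2, 48.5, 45.7 and 45.7 scaled RPKM in the 5 femurs 4 h after full fracture, against a lowest of 4.53, a median of 5.38 and a highest of 6.37 in the 10 intact femurs. Every fractured library lay far above every intact one, and the first stood above the other 4. Slc2a1 rose 9.19-fold at 4 h (log2 3.20 ± 0.14, adjusted p = 1.18e-18), and the log2 change was 3.10 without that library. It also stood apart in its markers, with a chondrocyte sum of 689 scaled RPKM against 67.4 to 80.8 in the other 4 and a muscle sum of 5888 against 12200.4 to 37421, whose part in the 4 h values was not tested. At 1 d its levels were 27.3, 35.7, 37.2, 45.1 and 32.3 scaled RPKM, again with no overlap with intact femurs (log2 change 2.71 ± 0.14, adjusted p = 2.38e-16). It averaged 13.0 ± 1.92 scaled RPKM at 3 d (SD, n = 5), 30.9 ± 8.73 at 7 d and 6.65 ± 1.30 at 14 d, so that its 2 high phases were parted by a low point. Its changes were 1.28 ± 0.14 at 3 d and 2.48 ± 0.14 at 7 d, both rises, and 0.31 ± 0.14 at 14 d (adjusted p = 0.0581), where the authors' deposited table gives 0.29 with an adjusted p of 0.0171.

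Slc2a3, the high-affinity carrier GLUT3 of neurons and many blood cells (chromosome 6, 122727809 to 122801640), was high early and low later. It rose by 1.64 ± 0.22 at 4 h and 0.75 ± 0.22 at 1 d, and fell by 1.15 ± 0.22 at 3 d. At 7 d it was at 4.81, 3.08, 4.13, 4.59 and 3.05 scaled RPKM in fractured femurs, all below the intact range and called as a fall. At 14 d it was at 2.23, 2.96, 1.90, 2.11 and 2.12 scaled RPKM in fractured femurs, against 8.23 to 17.4 (median 11.2) in intact femurs. The 5 fractured libraries were all below the lowest intact one, and Slc2a3 fell by 2.26 ± 0.22 (adjusted p = 3.17e-10). Beside it, 8 of 9 neutrophil markers rose at 4 h and 9 of 9 fell at 14 d, when their summed level was 319 to 1591 scaled RPKM in fractured femurs and 2072 to 4315 in intact femurs. Neutrophil RNA as the source of the Slc2a3 values was not tested. Slc16a3, the lactate exporter MCT4, rose at 4 h to 62.2 ± 5.75 scaled RPKM (SD, n = 5), while intact femurs averaged 24.5 ± 7.74 (SD, n = 10). It rose by 0.57 ± 0.17 at 1 d and 0.88 ± 0.17 at 7 d, and fell by 1.57 ± 0.17 at 14 d.

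In the limma fit no carrier was called up after stress fracture, while the authors' deposited table calls Slc2a1 up at 1 d (0.41, adjusted p of 0.0186) and Slc16a3 at 4 h (0.37, adjusted p of 0.0266). Slc2a1 averaged 24.9 ± 3.68 scaled RPKM in ulnas at 1 d (SD, n = 4) and 17.9 ± 3.60 in intact ulnas (SD, n = 9), a change of 0.48 ± 0.17 that was not called, and it fell by 0.45 ± 0.15 at 5 d. Slc2a3 was at 9.70, 6.31, 10.3, 9.24 and 10.4 scaled RPKM in ulnas 5 d after stress fracture, against 13.1 to 20.8 (median 17.2) in intact ulnas. All 5 lay below the intact range, with a fall of 0.91 ± 0.15 (adjusted p = 7.92e-06). At 7 d Slc2a3 was at 8.90, 9.60, 12.9 and 11.7 scaled RPKM, also below the intact range (change -0.67 ± 0.16, adjusted p = 0.00118). Neutrophil markers fell there too, 9 of 9 at 5 d and 8 of 9 at 7 d.

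In upper glycolysis the 3 phosphofructokinase subunits, which form the committed step of the pathway, went separate ways. Pfkl, the liver-type subunit, rose at all 5 times after full fracture, by 1.05 ± 0.10, 1.47 ± 0.10, 1.03 ± 0.10, 2.01 ± 0.10 and 0.45 ± 0.10 at 4 h, 1 d, 3 d, 7 d and 14 d, with no overlap with intact femurs at any of them. Pfkp, the platelet-type subunit, rose by 1.70 ± 0.10 at 4 h, 1.52 ± 0.10 at 1 d, 0.70 ± 0.10 at 3 d and 1.47 ± 0.10 at 7 d. Pfkm, the muscle-type subunit, averaged 75.7 ± 20.4 scaled RPKM at 3 d after full fracture (SD, n = 5) and 342 ± 114 in intact femurs (SD, n = 10). It fell by 1.34 ± 0.34 at 1 d, 2.14 ± 0.34 at 3 d, 2.09 ± 0.34 at 7 d and 2.13 ± 0.34 at 14 d.

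The hexokinases, which trap glucose in the cell, also parted. Hk1, the form found in most tissues, rose by 0.92 ± 0.10 at 4 h and 0.51 ± 0.10 at 1 d after full fracture. Hk2, the insulin-regulated form of muscle and fat that HIF-1 also induces, rose by 0.57 ± 0.16 at 4 h and fell by 1.00 ± 0.16 at 3 d, 1.20 ± 0.16 at 7 d and 2.04 ± 0.16 at 14 d. Gpi1, which turns glucose 6-phosphate into fructose 6-phosphate, rose by 0.45 ± 0.10 at 4 h and 0.32 ± 0.10 at 1 d. It fell at 3 later times, most at 14 d (by 0.78 ± 0.10). After stress fracture Hk1, Hk2 and Gpi1 all fell at 3 d, 5 d and 7 d, and Gpi1 already at 1 d. There Gpi1 was at 32.4, 35.4, 30.0 and 35.1 scaled RPKM, against 36.9 to 42.4 (median 39.6) in intact ulnas. The groups did not overlap, though the fall was only 0.26 ± 0.07 (adjusted p = 0.0143) and was not called without library 4 (adjusted p = 0.0777).

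Pfkfb3 and Pfkfb4 make fructose 2,6-bisphosphate, the strongest known activator of phosphofructokinase. Both were high at 4 h after full fracture, with rises of 1.74 ± 0.17 for Pfkfb3 and 1.66 ± 0.14 for Pfkfb4. Pfkfb3 was at 38.7, 35.6, 33.0, 32.3 and 46.4 scaled RPKM in those femurs, against 6.76 to 22.0 (median 10.7) in intact femurs, without overlap. By 1 d Pfkfb3 was within 0.20 ± 0.17 of the intact level, and at 14 d it had fallen by 0.96 ± 0.17. Pfkfb4 fell by 1.09 ± 0.14 at 7 d and 0.89 ± 0.14 at 14 d.

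Pfkfb4 and Pfkp led the short list of rises 4 h after stress fracture. Pfkfb4 was at 25.1, 32.8, 22.2, 21.5 and 18.9 scaled RPKM in those ulnas, against 12.7 to 15.5 (median 13.6) in intact ulnas, so every injured library was above every intact one. It rose 1.70-fold (log2 0.77 ± 0.10, adjusted p = 2.91e-06). Pfkp was at 7.01, 6.88, 7.45, 6.00 and 5.14 scaled RPKM in the same ulnas, against 3.71 to 5.09 (median 4.57) in intact ulnas, with the fifth library only just above the intact range (change 0.54 ± 0.14, adjusted p = 0.0119). Pfkfb3 did not rise there (-0.28 ± 0.15).

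In lower glycolysis the isozymes of a step moved apart. Pgam1 and Eno1, the broadly expressed phosphoglycerate mutase and enolase, rose at all 5 times after full fracture without overlap with intact femurs. Eno1 was at 15.4, 14.3, 15.0, 20.3 and 14.5 scaled RPKM at 3 d after full fracture, against 4.07 to 5.51 (median 5.14) in intact femurs. All 5 stood well above the intact range and the fourth above the others. Eno1 rose by 1.65 ± 0.10 at 3 d (adjusted p = 2.69e-14), and its rises at 4 h, 1 d, 7 d and 14 d were 1.19 ± 0.10, 1.78 ± 0.10, 2.10 ± 0.10 and 0.40 ± 0.10. Pgam1 was at 5.07, 3.55, 4.14, 4.60 and 3.47 scaled RPKM at 7 d after full fracture, against 0.854 to 1.43 (median 1.13) in intact femurs, a rise of 1.82 ± 0.14.

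Pgam2 and Eno3, the muscle mutase and the muscle enolase, fell from 1 d on. Pgam2 (chromosome 11, 5801640 to 5803733) was at 74.4, 115, 160, 106 and 209 scaled RPKM at 1 d after full fracture, against 221 to 758 (median 480) in intact femurs. The highest fractured library lay just under the lowest intact one, and Pgam2 fell by 1.94 ± 0.37 (adjusted p = 5.74e-05). At 3 d it was at 94.8, 52.2, 72.4, 94.8 and 79.9 scaled RPKM and at 7 d at 35.2, 213, 92.2, 39.5 and 101. The 7 d libraries were the more spread out, and library 2 came close to the intact range. Both falls were 2.64 ± 0.37 (adjusted p = 3.40e-07 at 3 d and 2.37e-07 at 7 d), and the fall at 14 d was 2.11 ± 0.37.

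Eno3 (chromosome 11, 70657202 to 70662513) averaged 138 ± 38.8 scaled RPKM at 3 d after full fracture (SD, n = 5) and 779 ± 270 in intact femurs (SD, n = 10), a fall of 2.46 ± 0.40. Aldoa, the muscle and general aldolase, fell by 0.73 ± 0.30 at 1 d, 1.63 ± 0.30 at 3 d, 1.69 ± 0.30 at 7 d and 1.91 ± 0.30 at 14 d. The muscle-type genes did not fall at 4 h, where Pgam2 was at -0.46 ± 0.37, Eno3 at -0.16 ± 0.40, Pfkm at -0.35 ± 0.34 and Aldoa at -0.16 ± 0.30.

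Skeletal muscle markers moved with these genes. After full fracture 2 of 12 markers fell at 4 h, 11 at 1 d and 12 at each later time, while none was at 0 in any library. Their summed level had a lowest, median and highest of 5888, 17955 and 37421 scaled RPKM at 4 h, of 5597, 10344 and 15065 at 1 d and of 2618, 4757 and 6514 at 3 d. It was 1817, 5211 and 10991 at 7 d and 3911, 5874 and 6463 at 14 d, against 10491, 22988 and 33578 in intact femurs. At 7 d library 2, where Pgam2 and Eno3 were highest, also had the highest muscle sum, and libraries 1 and 4, where both were lowest, had the 2 lowest sums. How much of the fall of Pgam2, Eno3, Pfkm and Aldoa comes from less muscle in the section was not tested.

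Stress fracture gave the same 2 isozyme falls at smaller size. Pgam2 was at 346, 212, 162, 252 and 104 scaled RPKM at 3 d, against 365 to 444 (median 417) in intact ulnas, all 5 below the intact range (change -1.05 ± 0.21, adjusted p = 0.000212). Eno3 was at 483, 379, 247, 402 and 210 scaled RPKM in the same ulnas, against 504 to 726 (median 681) in intact ulnas, also without overlap (change -0.98 ± 0.21, adjusted p = 0.000374). Eno1 rose there by 0.67 ± 0.08 and Pgam1 by 0.50 ± 0.19 (adjusted p of Pgam1 = 0.0405, limma). The Pgam1 call was lost without intact ulna 2, which stood apart in Ddit4 (adjusted p = 0.0538).

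Later Pgam2 was nearer to its intact level. It was at 326, 271, 227, 253 and 289 scaled RPKM at 5 d after stress fracture (change -0.61 ± 0.21, adjusted p = 0.0209) and at 270, 289, 315 and 144 at 7 d (-0.76 ± 0.23, adjusted p = 0.00995), with every library below the intact range of 365 to 444. The Pgam2 call was lost at 5 d without library 3 (adjusted p = 0.0605) and at 7 d without library 5 (adjusted p = 0.106). Of the 12 muscle markers 12 fell at 3 d, 10 at 5 d and 5 at 7 d after stress fracture, and none at 4 h or 1 d. Their summed level ran from 5306 to 15320 scaled RPKM at 3 d and from 14728 to 22653 in intact ulnas.

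Isozyme ratios were taken within each library as log2 differences of scaled RPKM + 0.1, so a library's factor nearly cancels, although the pseudocount draws ratios of low genes such as Pgam1 toward 0. The log2 ratio of Pgam1 to Pgam2 averaged -4.20 ± 1.28 at 7 d after full fracture (SD, n = 5) and -8.65 ± 0.70 in intact femurs (SD, n = 10). That of Eno1 to Eno3 averaged -2.75 ± 1.32 at 7 d and -7.17 ± 0.62 in intact femurs, and that of Pfkl to Pfkm -1.06 ± 1.00 at 7 d and -5.16 ± 0.50 in intact femurs. For these 3 pairs the fractured femurs overlapped the intact ones at 4 h and at no later time. In ulnas the ratios of Pgam1 to Pgam2 and of Eno1 to Eno3 cleared the intact range at 3 d alone, with -7.05 ± 0.74 (SD, n = 5) against -8.60 ± 0.33 in intact ulnas (SD, n = 9) for the first pair. Even at 7 d after full fracture the muscle-type gene of each pair had the higher listed level in every library.

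**Figure D2:**
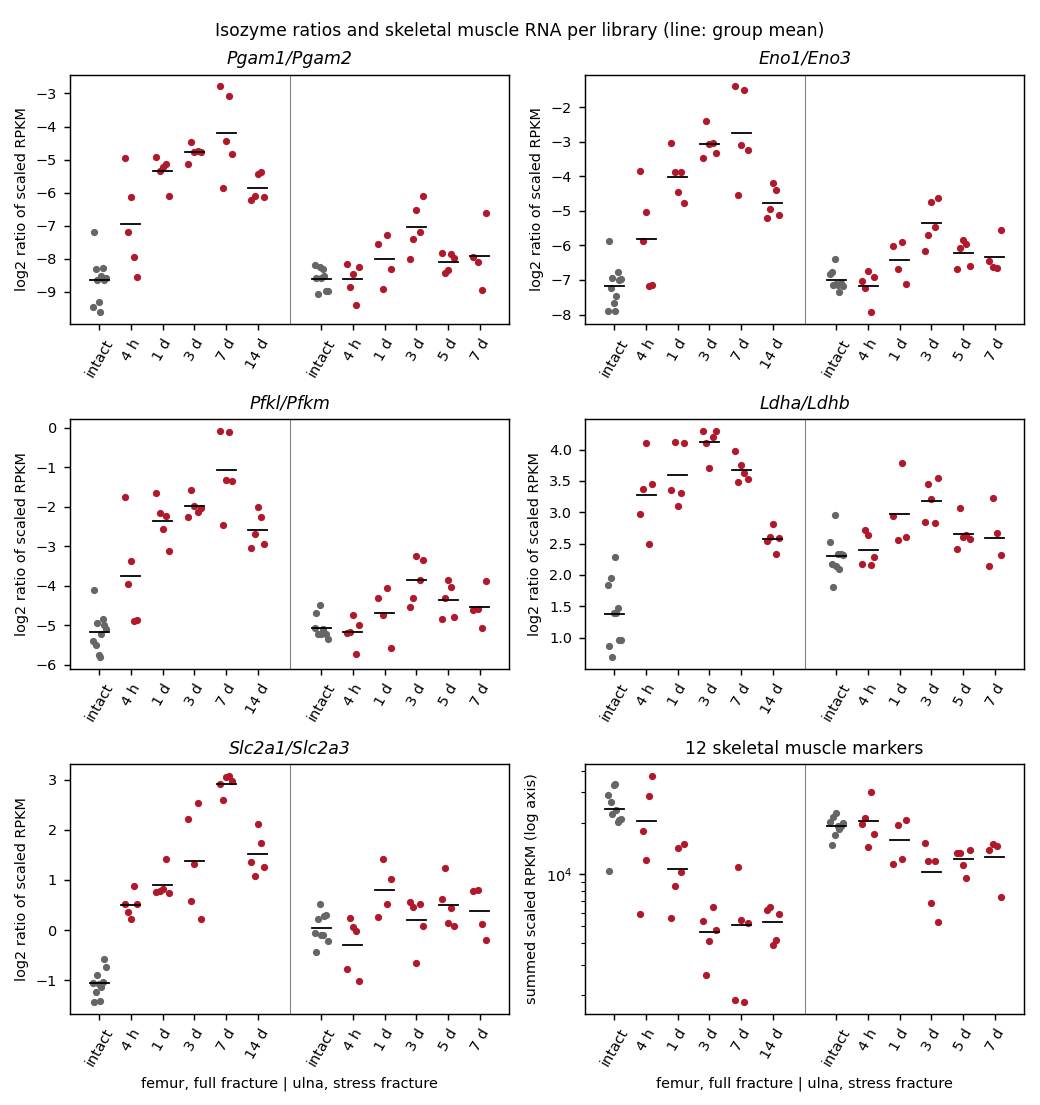
Log2 ratio (of scaled RPKM + 0.1) of 2 isozymes, or of 2 glucose carriers, in each library (points), and the summed scaled RPKM of 12 skeletal muscle markers on a log axis, with lines at group means, grey for intact and red for injured limbs. Pgam1/Pgam2 climbs to a mean of -4.20 at 7 d after full fracture against -8.65 in intact femurs, while the muscle sum has a median of 5211 at 7 d against 22988.

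Aldoc, the brain-type aldolase (chromosome 11, 78322968 to 78327781), had the largest change of the 34 at 7 d after full fracture. It was at 8.75, 4.66, 9.40, 8.45 and 6.52 scaled RPKM at 7 d after full fracture, against 0.378 to 0.885 (median 0.487) in intact femurs. The lowest 7 d library was several times the highest intact one. Aldoc rose 11.8-fold at 7 d (log2 3.56 ± 0.17, adjusted p = 1.25e-17) and was still up by 2.25 ± 0.17 at 14 d. It did not rise at 4 h (0.02 ± 0.17), and its rises at 1 d and 3 d were 0.90 ± 0.17 and 0.70 ± 0.17. After stress fracture it rose at 5 d (1.01 ± 0.22). The authors' deposited table also calls Aldoc up at 3 d (0.67, adjusted p of 0.0254) and at 7 d (0.64, adjusted p of 0.00767).

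The 7 d femurs were also those rich in cartilage RNA. All 8 chondrocyte markers rose at 7 d after full fracture, with summed levels from 4466 to 10038 scaled RPKM against 80.0 to 181 in intact femurs, and all 8 rose at 5 d after stress fracture, with 646 to 2039 against 50.2 to 124 in intact ulnas. Matn1, a cartilage matrix protein, was at 0 in 2 femur and 9 ulna libraries, and the other 7 markers were above 0 in every library. Whether the Aldoc rise lies in cartilage cells was not tested, nor was it for the 7 d femur rises of Slc2a1, Hif1a, Adm, Car9 and P4ha1.

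Other lower steps changed less. Tpi1, Gapdh and Pkm, the triose isomerase, the glyceraldehyde dehydrogenase and the muscle-type pyruvate kinase gene, fell at 14 d after full fracture by 1.04 ± 0.23, 1.05 ± 0.14 and 0.70 ± 0.17. Counting 14 d, Tpi1 fell at 3 times and Gapdh at 2 times after full fracture. Earlier, Gapdh rose at 4 h (0.59) and Pkm at 1 d (0.57). Pgk1, the first step that makes ATP, rose by 0.64 ± 0.16 at 4 h, 0.58 ± 0.16 at 1 d and 0.85 ± 0.16 at 7 d. After stress fracture Pgk1 and Pkm fell at 7 d, by 0.42 ± 0.11 and 0.31 ± 0.10, and Tpi1 and Gapdh each fell at 3 times.

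Lactate dehydrogenase changed chiefly through 1 subunit. Ldhb, the heart-type subunit that favours pyruvate (chromosome 6, 142490249 to 142507957), fell at all 5 times after full fracture. It was at 13.9, 10.9, 24.8, 17.0 and 13.4 scaled RPKM at 1 d, against 53.1 to 106 (median 73.1) in intact femurs (change -2.25 ± 0.24, adjusted p = 2.89e-09). At 3 d it was at 6.70, 6.59, 9.47, 9.28 and 6.78 scaled RPKM, the lowest of any time (change -3.24 ± 0.24, adjusted p = 7.53e-13). At 7 d it was at 13.9, 20.6, 15.6, 15.1 and 15.7 scaled RPKM (change -2.19 ± 0.24, adjusted p = 1.56e-09). From 1 d on, every fractured library was below every intact one. The falls at 4 h and 14 d were 1.56 ± 0.24 and 1.96 ± 0.24.

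Erythroid markers, from cells known to carry Ldhb, changed as well, and their part in the Ldhb values was not tested. All 6 rose at 4 h after full fracture, when Ldhb fell, and all 6 fell at 3 d, 7 d and 14 d. Their summed levels were 7.80 to 34.0 scaled RPKM at 3 d against 217 to 429 in intact femurs. The mean log2 difference of adipocyte markers from intact femurs had medians of -0.97, -1.98, -2.82, -2.54 and -1.72 at the 5 times. That of skeletal muscle markers had medians of -0.44, -1.24, -2.42, -2.17 and -1.86. The adipocyte marker Lep was at 0 in 7 femur libraries. The part of fat and muscle RNA in the Ldhb values was not tested either. Ldha, the muscle-type subunit that favours lactate, stayed within 0.34 ± 0.20 at 4 h, -0.03 ± 0.20 at 1 d and 0.10 ± 0.20 at 7 d, none of them called, and fell by 0.50 ± 0.20 at 3 d and 0.77 ± 0.20 at 14 d. The log2 ratio of Ldha to Ldhb averaged 4.12 ± 0.24 at 3 d after full fracture (SD, n = 5) and 1.38 ± 0.52 in intact femurs (SD, n = 10), and no fractured library at any time lay within the intact range. Pdk1, which blocks entry of pyruvate into mitochondria, did not rise at any time in either bone. It fell at 4 times after full fracture, most at 3 d (by 1.10 ± 0.17), and at 3 times after stress fracture. In ulnas Ldhb fell at 3 d (1.03 ± 0.23). The authors' deposited table also calls Ldhb down at 5 d (-0.52, adjusted p of 0.00204) and at 7 d (-0.56, adjusted p of 0.00485).

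Hif1a, the oxygen-labile alpha subunit of HIF-1 (chromosome 12, 73901375 to 73947530), was the 1 member that rose in all 10 comparisons. At 4 h after full fracture it was at 57.5, 54.4, 58.3, 55.6 and 50.1 scaled RPKM and at 1 d at 35.5, 56.4, 37.5, 41.5 and 44.2, against 9.63 to 14.1 (median 12.5) in intact femurs. At 3 d it was at 48.6, 40.9, 46.0, 58.6 and 40.5, at 7 d at 94.2, 83.4, 88.9, 77.8 and 75.6, and at 14 d at 26.1, 31.6, 35.6, 32.6 and 32.1 scaled RPKM. None of the 25 fractured femurs came near the intact range, and the 7 d femurs were the highest. The log2 changes were 2.23 ± 0.10, 1.85 ± 0.10, 1.98 ± 0.10, 2.83 ± 0.10 and 1.42 ± 0.10 at 4 h, 1 d, 3 d, 7 d and 14 d, and the largest is 7.10-fold (adjusted p = 2.97e-20). Macrophage markers rose as well, 3, 6, 7, 5 and 4 of 7 at the same times (1 fell at 4 h), with median summed levels of 804, 976, 1337, 704 and 785 scaled RPKM against 535 in intact femurs. Chondrocyte markers had median summed levels of 71.1, 48.5, 220, 8272 and 1202 scaled RPKM at these times, against 118 in intact femurs. The part of either cell type in the Hif1a values was not tested. HIF-1 activity is known to be set mainly through the stability of the protein, which RNA counts do not measure.

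In ulnas the rise of Hif1a was slower and smaller. It was at 18.0, 16.2, 16.3, 12.7 and 11.2 scaled RPKM 4 h after stress fracture, against 10.4 to 12.4 (median 10.9) in intact ulnas, where only the fifth library lay inside the intact range. At 1 d it was at 17.7, 22.0, 19.0 and 18.6, at 3 d at 23.8, 24.8, 34.9, 20.6 and 25.0, at 5 d at 26.1, 31.0, 19.6, 21.9 and 25.1, and at 7 d at 17.2, 18.6, 15.9 and 20.5 scaled RPKM. From 1 d on, every injured ulna was above every intact one. The changes were 0.38 ± 0.11 at 4 h, 0.77 ± 0.12 at 1 d, 1.17 ± 0.11 at 3 d, 1.11 ± 0.11 at 5 d and 0.67 ± 0.12 at 7 d (adjusted p from 1 d on of 6.35e-05 or smaller). Of the 7 macrophage markers 2, 2, 6, 3 and 4 rose at these times, with median summed levels of 554, 669, 888, 597 and 587 scaled RPKM against 660 in intact ulnas, and their part was not tested. Chondrocyte markers had median summed levels of 53.2, 49.6, 173, 1036 and 457 scaled RPKM, against 59.3 in intact ulnas. Their part was not tested either.

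The other alpha subunit and the main hydroxylase were lower at several times. Epas1, which encodes HIF-2 alpha and is known for endothelial cells, fell at all 5 times after full fracture, by 0.33 ± 0.10, 0.93 ± 0.10, 1.25 ± 0.10, 1.23 ± 0.10 and 0.42 ± 0.10. Endothelial markers had median summed levels of 92.8, 113, 108, 100 and 129 scaled RPKM at these times, against 80.5 in intact femurs. At 4 h, however, their mean log2 difference from intact femurs had a median of -0.41. Their part in the Epas1 values was not tested. Egln1, the main oxygen-sensing hydroxylase PHD2, fell by 0.44 ± 0.16 at 4 h, 0.62 ± 0.16 at 1 d, 1.28 ± 0.16 at 3 d and 1.24 ± 0.16 at 14 d. The authors' deposited table does not call Egln1 at 4 h (-0.37, adjusted p of 0.102) and calls it down at 7 d (-0.38, adjusted p of 0.00812). After stress fracture Epas1 and Egln1 both fell at 3 d, Epas1 by 0.50 ± 0.09 and Egln1 by 0.40 ± 0.14. In the authors' deposited table Egln1 is also down at 5 d (-0.30, adjusted p of 0.00349).

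Egln3, the hydroxylase PHD3 and itself a known HIF target (chromosome 12, 54178981 to 54203860), first rose and then fell. It rose by 0.94 ± 0.18 at 1 d after full fracture and fell by 1.23 ± 0.18 at 3 d and 1.19 ± 0.18 at 7 d. At 14 d it was at 2.44, 1.78, 1.79, 1.67 and 2.08 scaled RPKM, against 7.47 to 15.2 (median 12.0) in intact femurs. All 5 libraries were far below the intact range (change -2.50 ± 0.18, adjusted p = 1.00e-12). In ulnas its libraries scattered, and at 3 d library 4 was at 36.3 scaled RPKM against 5.88 to 10.2 in the other 4. The 1 call there was a fall at 5 d (log2 change -0.96). The authors' deposited table also calls Egln3 up at 1 d (0.47, adjusted p of 0.0478) and down at 7 d (-0.56, adjusted p of 0.0379).

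Among the other hypoxia-induced genes, Adm was high at 4 h, 1 d and 7 d after full fracture. Adm encodes adrenomedullin, a peptide that widens vessels (chromosome 7, 110627661 to 110629820). It was at 22.1, 14.3, 16.3, 18.2 and 21.7 scaled RPKM 4 h after full fracture, against 1.88 to 4.82 (median 2.96) in intact femurs. Every fractured library was above every intact one, and Adm rose 6.20-fold (log2 2.63 ± 0.18, adjusted p = 1.16e-13). It rose by 1.75 ± 0.18 at 1 d and 2.24 ± 0.18 at 7 d, while at 3 d (0.20 ± 0.18) and 14 d (-0.11 ± 0.18) no difference was called. Adm was not called at any time after stress fracture, where its changes lay between 0.17 ± 0.20 and 0.36 ± 0.21.

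Car9, a membrane carbonic anhydrase widely used as a mark of hypoxic cells (chromosome 4, 43506966 to 43513729), rose once. It was at 7.05, 2.45, 4.49, 5.73 and 3.15 scaled RPKM at 7 d after full fracture, against 0.644 to 1.72 (median 1.22) in intact femurs. The 7 d libraries all lay above the intact range (change 1.77 ± 0.18). At 4 h, 1 d and 3 d its changes were -0.16 ± 0.18, 0.01 ± 0.18 and 0.05 ± 0.18. At 14 d its change was -0.42 (adjusted p = 0.0523, limma), where the authors' deposited table gives -0.52 with an adjusted p of 0.00936. After stress fracture Car9 fell at 1 d, 3 d and 5 d, by 0.58 ± 0.15, 0.56 ± 0.14 and 0.63 ± 0.14.

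P4ha1, the prolyl hydroxylase subunit that readies collagen for folding (chromosome 10, 59323296 to 59373304), rose in both bones from 1 d on. It was at 48.7, 54.9, 64.0, 58.0 and 53.6 scaled RPKM at 14 d after full fracture, against 17.9 to 33.9 (median 24.4) in intact femurs. All 5 stood above the intact range (change 1.20 ± 0.13, adjusted p = 4.19e-09), and the rises at 1 d, 3 d and 7 d were 0.80 ± 0.13, 1.16 ± 0.13 and 1.96 ± 0.13. In ulnas P4ha1 was at 18.5, 25.5, 16.1 and 17.8 scaled RPKM at 1 d after stress fracture, against 11.5 to 16.0 (median 14.0) in intact ulnas (change 0.47 ± 0.11, adjusted p = 0.00443). The third of these was barely above the intact range, and without library 2 the call was lost (adjusted p = 0.0585).

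Of the 34 genes P4ha1 rose most in ulnas from 3 d on. It was at 50.0, 40.6, 48.8, 43.0 and 33.3 scaled RPKM at 3 d after stress fracture, at 43.1, 47.4, 32.9, 38.3 and 41.1 at 5 d, and at 28.4, 29.2, 23.5 and 28.5 at 7 d. No injured ulna overlapped the intact range of 11.5 to 16.0. The changes were 1.62 ± 0.10, 1.54 ± 0.10 and 0.98 ± 0.11 (adjusted p of 7.25e-08 or smaller). Osteoblast markers rose beside it, 5 of 7 at 3 d and 7 of 7 at 5 d and 7 d, with summed levels of 8287 to 14041 scaled RPKM at 5 d against 521 to 2676 in intact ulnas, and their part in the P4ha1 rise was not tested.

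**Figure D3:**
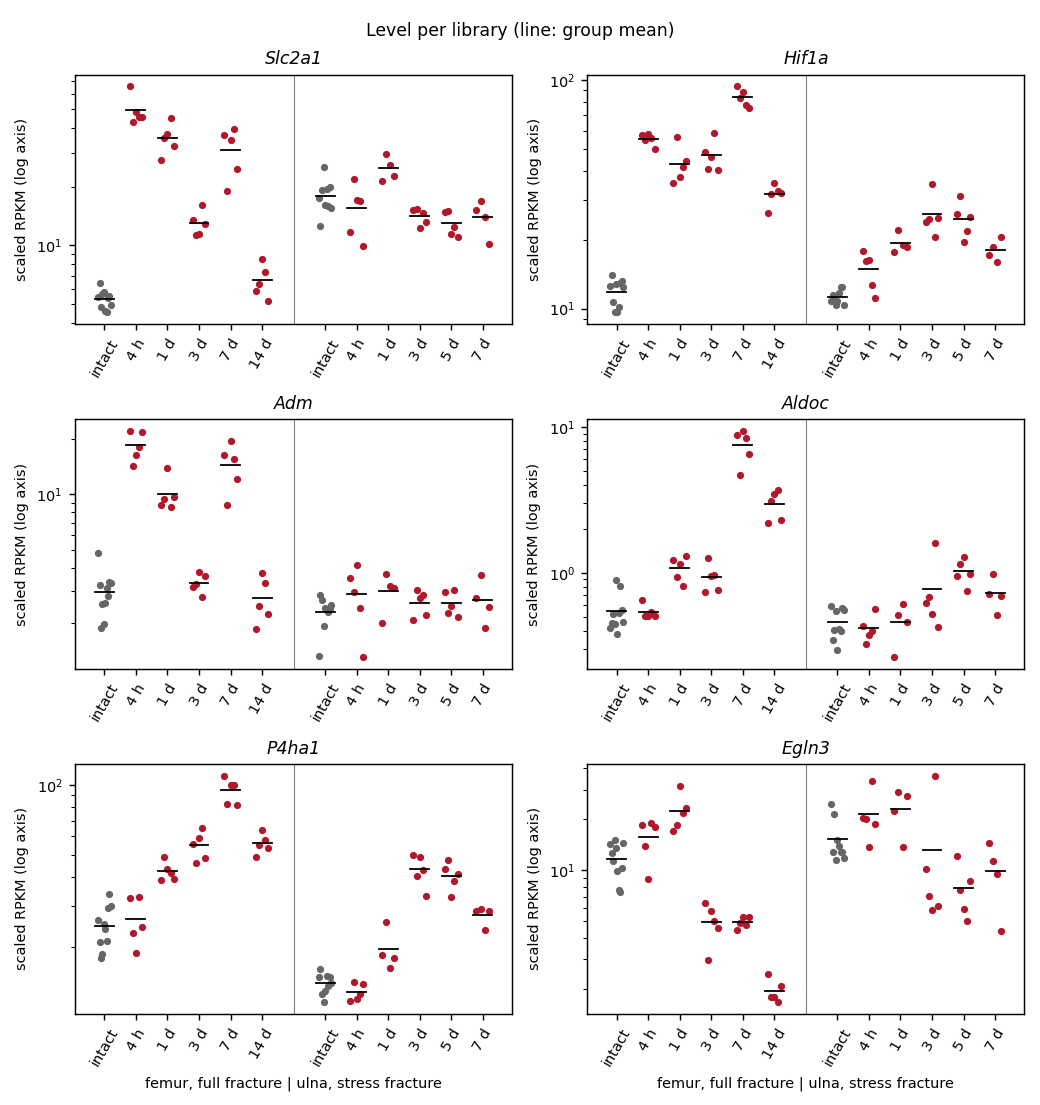
Scaled RPKM of 6 genes in every library (points, log axis), with lines at group means, grey for intact and red for injured limbs, full fracture of the femur left and stress fracture of the ulna right in each panel. Hif1a and P4ha1 lie above their intact ranges from 1 d on in both bones, Slc2a1 and Adm are highest at 4 h after full fracture and high again at 7 d, Aldoc peaks at 7 d, and Egln3 ends at 1.95 at 14 d against 11.7 in intact femurs.

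Bnip3 and Ndrg1, both known HIF targets, did not rise in any of the 10 comparisons. Bnip3, a mitochondrial receptor for autophagy, was at 4.73, 3.01, 4.60, 5.14 and 4.70 scaled RPKM at 3 d after full fracture, against 13.0 to 23.9 (median 19.7) in intact femurs (change -2.06 ± 0.22). At 7 d its change was 0.23 ± 0.22, and at 14 d it had again fallen, by 1.73 ± 0.22. Ndrg1, a stress-responsive growth regulator, fell by 0.68 ± 0.12 at 1 d, 1.69 ± 0.12 at 3 d, 1.62 ± 0.12 at 7 d and 1.26 ± 0.12 at 14 d. In ulnas Bnip3 fell at 3 d and 5 d, and Ndrg1 fell at 4 h, 1 d, 3 d and 5 d by 0.28 to 0.40. The authors' deposited table also calls Bnip3 down at 7 d after stress fracture (-0.54, adjusted p of 0.00105).

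Ddit4, an inhibitor of mTOR signalling that hypoxia and stress hormones induce (chromosome 10, 59949669 to 59951834), was at 98.3, 95.5, 98.8, 128 and 106 scaled RPKM 4 h after full fracture. Of the 10 intact femurs, 8 lay between 10.4 and 19.0, while libraries 1 and 2 were at 210 and 156 scaled RPKM, above every fractured femur. The rise at 4 h was 2.17 ± 0.47 with all intact femurs, and in the limma fit no other time was called, with values from 0.11 ± 0.47 to 0.53 ± 0.47. The authors' deposited table calls Ddit4 up at the 4 later times too, with log2 changes of 1.05, 0.81, 0.69 and 0.74 (adjusted p of 1.26e-06 or smaller). Without those 2 intact femurs the Ddit4 change was 2.91 ± 0.12 at 4 h and between 0.85 ± 0.12 and 1.27 ± 0.12 at the 4 later times. The libraries were left out for their Ddit4 level, so these values are a description with no test. In ulnas intact library 2 was at 104 scaled RPKM against 9.18 to 26.2 in the other 8, and no Ddit4 change was called.

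Steps from each time to the next in the femur came from the same fit. Each equals the later change from intact minus the earlier one, so the steps are not independent of the changes above. From 4 h to 1 d, 5 members rose and 16 fell, beside 20.3% of all genes up and 19.5% down. From 1 d to 3 d, none rose and 22 fell, beside 15.7% up and 16.4% down. The lowest member change in that step was Egln3 at -2.17 ± 0.21, followed by Slc2a3 at -1.90 ± 0.25 and Bnip3 at -1.68 ± 0.25. From 3 d to 7 d, 19 rose and 1 fell, the fall being Pfkfb4, beside 19.8% up and 15.4% down. The time label also changes in that step, from periosteum to callus, and its part was not tested. Aldoc rose by 2.86 ± 0.20 in that step, Bnip3 by 2.29 ± 0.25, Adm by 2.05 ± 0.21, Car9 by 1.72 ± 0.21 and Slc2a1 by 1.20 ± 0.16. From 7 d to 14 d, 24 fell and 2 rose, beside 17.5% down and 14.0% up, with Slc16a3 at -2.45 ± 0.19 and Adm at -2.35 ± 0.21 the lowest. Both rises are named here for their small number, Epas1 (0.81 ± 0.11) and Ndrg1 (0.37 ± 0.14). On the RPKM as deposited the split from 4 h to 1 d was 6 up and 9 down, and from 3 d to 7 d it was 15 up and 3 down.

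The ulna steps held few calls. From 4 h to 1 d, 2 members rose (Slc2a1, P4ha1) and 2 fell (Gpi1, Pfkfb4), beside 7.25% of all genes up and 3.89% down, and 7 were called without the 1 d library 5. From 1 d to 3 d, 3 rose (Eno1, Hif1a, P4ha1) and 4 fell, beside 10.8% up and 6.24% down, and 4 in all were called without 1 d library 5, 3 d library 2 or 3 d library 3. With the RPKM left as deposited, 2 rose and 7 fell in that step. From 3 d to 5 d, 1 rose (Epas1) and 2 fell (Pfkfb4, Eno1), beside 2.21% up and 2.46% down. That count was 1 without 3 d library 2, 3 or 5 or 5 d library 1, 2 or 4, and with the RPKM left as deposited none rose and 3 fell. From 5 d to 7 d the 1 call was a fall of P4ha1, beside 0.278% up and 1.42% down, and it was lost without 5 d library 2 or 7 d library 4.

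The responses to the 2 fractures were set against each other as the femur change minus the ulna change at the 4 shared times. Positive values mean that the femur rose more or fell less. At 4 h, 16 members were higher and 3 lower in this difference (median 0.34), beside 17.8% of 21092 genes higher and 18.2% lower. At 1 d, 15 were higher and 3 lower (median 0.50), beside 13.8% and 13.4%. At 3 d, 6 were higher and 10 lower (median -0.16), beside 12.7% and 13.6%, and at 7 d, 14 were higher and 9 lower (median 0.39), beside 23.5% and 23.5%. The injuries also differ in bone, section length and marrow removal, which cannot be told apart from the kind of fracture here. At 7 d the time labels differ as well, callus for the femur and periosteum for the ulna.

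The largest differences at 4 h were those of Slc2a1 (3.43 ± 0.21), Adm (2.39 ± 0.27), Pfkfb3 (2.01 ± 0.23) and Hif1a (1.84 ± 0.15), with adjusted p of 4.43e-10 or smaller. At 1 d Slc2a1 again led (2.21 ± 0.22), with Ldhb (-1.62 ± 0.36), Eno1 (1.53 ± 0.14) and Pfkl (adjusted p = 8.57e-12) next. At 3 d the 4 were Ldhb (-2.21 ± 0.34), Slc2a1 (1.61 ± 0.21), Pgam2 (-1.58 ± 0.44) and Eno3 (-1.47 ± 0.47, adjusted p = 0.0140). At 7 d they were Aldoc (3.02 ± 0.28), Slc2a1 (2.83 ± 0.22), Hif1a (2.16 ± 0.16) and Car9 (2.15 ± 0.24), with adjusted p of 1.28e-10 or smaller. The difference of P4ha1, which rose in both bones, was 0.19 ± 0.17 at 4 h and 0.31 ± 0.18 at 1 d, neither called, then -0.45 ± 0.17 at 3 d and 0.98 ± 0.18 at 7 d, both called.

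**Figure D4:**
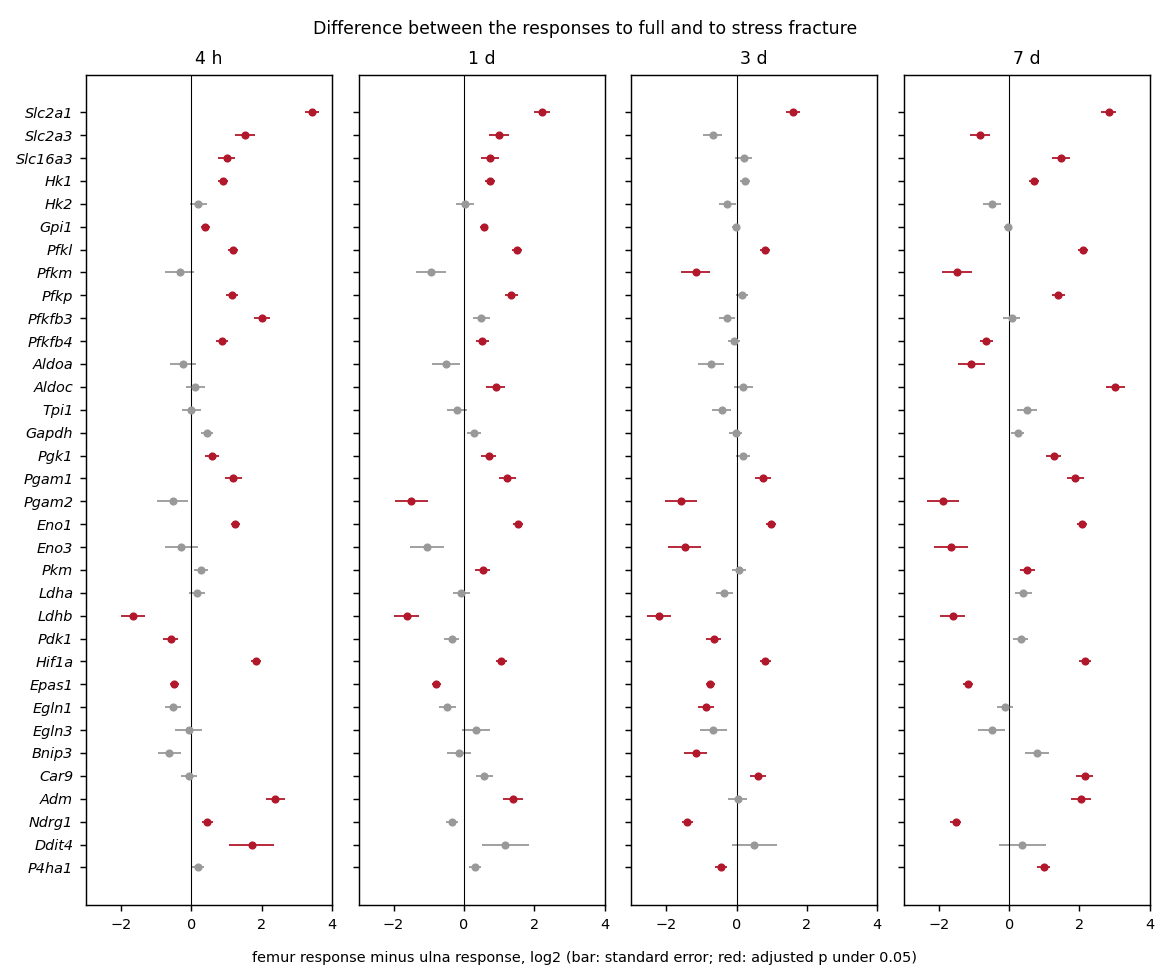
Femur response minus ulna response of the 34 genes (log2) at 4 h, 1 d, 3 d and 7 d, with points for the estimate, bars for its standard error and red for adjusted p under 0.05. Slc2a1 lies right of 0 at all 4 times, between 1.61 and 3.43, and Aldoc stands at 3.02 at 7 d.

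The intact limbs themselves differed. Relative to intact femurs, 3 members were higher and 12 lower in intact ulnas (median -0.24), beside 18.0% of all genes higher and 21.7% lower. The split depended on the scaling, with 8 higher and 6 lower on the RPKM as deposited, under which the median of all genes was 0.20 in place of -0.01. Slc2a1 averaged 17.9 ± 3.60 scaled RPKM in intact ulnas (SD, n = 9) and 5.29 ± 0.571 in intact femurs (SD, n = 10), each on the scale of its own bone. Slc2a1 was higher in intact ulnas by 1.53 ± 0.12 (adjusted p = 1.19e-15). Ldhb (-1.55 ± 0.20) and Bnip3 (-0.91 ± 0.20) were lower in intact ulnas, and so was P4ha1 (adjusted p = 3.37e-12), which lay at 11.5 to 16.0 scaled RPKM in intact ulnas and at 17.9 to 33.9 in intact femurs, without overlap. Erythroid markers summed to 508 to 805 scaled RPKM in intact ulnas and 217 to 429 in intact femurs, whose marrow was removed, and their part in these differences was not tested.

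Other genes of the same pathways were examined as lists that share no gene with the 34. At the 5 femur times 26.7 to 32.5% of all genes rose and 24.8 to 33.6% fell, and at the 5 ulna times 5.51 to 22.3% rose and 3.98 to 20.9% fell, which is the background for these lists. Of 22 other glycolysis and pyruvate genes tested in femurs, 7 rose and 5 fell at 4 h, 5 and 12 at 1 d, 2 and 15 at 3 d, 3 and 16 at 7 d, and 3 and 16 at 14 d. The insulin-regulated carrier of muscle and fat, Slc2a4, had the largest fall of that list from 1 d to 14 d and fell by 3.57 ± 0.31 at 7 d, when it averaged 6.15 ± 3.71 scaled RPKM (SD, n = 5) and its mean in intact femurs was 67.2 ± 17.6 (SD, n = 10). Pgm1 had the largest rise of that list at 4 h (1.76 ± 0.08). Of 21 tested in ulnas, 2 rose and 1 fell at 4 h, none and 1 at 1 d, 4 and 12 at 3 d, 2 and 11 at 5 d, and 2 and 10 at 7 d. Pdk4, which spares glucose by blocking pyruvate dehydrogenase, rose most there, by 2.98 ± 0.59 at 4 h after stress fracture.

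Of 27 other hypoxia genes tested in femurs, 16 rose and 3 fell at 4 h, 14 and 5 at 1 d, 11 and 10 at 3 d, 15 and 6 at 7 d, and 7 and 7 at 14 d. At 7 d the largest rise was that of P4ha2, the second collagen prolyl hydroxylase subunit, at 3.08 ± 0.16. Ppp1r3c, which directs glycogen synthesis, had the largest fall at 1 d, 3 d, 7 d and 14 d, between -2.34 ± 0.39 and -2.60 ± 0.39. Of 28 tested in ulnas, 6 rose and none fell at 4 h, 3 and 3 at 1 d, 10 and 7 at 3 d, 10 and 8 at 5 d, and 6 and 8 at 7 d. Lox, which crosslinks collagen, led at the last 3 times, with rises of 3.17 ± 0.29, 3.22 ± 0.29 and 2.91 ± 0.31.

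The reverse pathway, gluconeogenesis, held 6 tested genes. In femurs 1 rose and 2 fell at 4 h, none and 2 at 1 d, none and 3 at 3 d, 3 and 3 at 7 d, and 1 and 4 at 14 d. Pck1, its cytosolic entry enzyme, which fat cells also express, averaged 0.213 ± 0.108 scaled RPKM 4 h after full fracture (SD, n = 5) and 3.31 ± 1.88 in intact femurs (SD, n = 10), and fell at all 5 times, by 3.23 ± 0.45 at 4 h. In ulnas none rose at any time, and 1, 3, 3, 1 and 2 fell at 4 h, 1 d, 3 d, 5 d and 7 d.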

How the data were processed

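Per the labels' protocols, total RNA was freed of rRNA and sequenced in single reads of 50 nt. Reads were aligned with STAR 2.4.2a to mm10 and assigned with Subread featureCounts 1.4.6, per the submitters' processing notes, and no gene annotation is named in the sources used here (not given). The authors deposited RPKM per gene and library for each injured group beside the intact limbs of the same bone, and, per the file headers, a log2 fold change, a p-value and an adjusted p-value for each comparison, made with DESeq2 per the submitters' processing notes. Times of the ulna tables come from the names of the sheets. The names of 27 genes per bone appear as calendar dates in the tables, and these rows were not used. Low RPKM values were whole multiples of what 1 read is worth for 88.7 to 91.4% of values under 20 reads (tolerance 0.01), which gave the depths of 8.12 to 30.8 M.

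Here the RPKM were divided by median-of-ratios factors per bone, a gene was kept if 5 or more libraries reached 0.5 scaled RPKM, and log2(scaled RPKM + 0.1) entered limma (version 3.58.1, under R 4.3.3, with trend and robust moderation), with all libraries of a bone in 1 model (19944 genes in femurs, 20506 in ulnas). Differences between responses and between intact limbs came from 1 fit of all 67 libraries (21092 genes). The Benjamini-Hochberg adjustment covered every gene tested in a comparison. Of the labelled samples 3 were not analysed here. A fold understates the change of low genes because of the pseudocount. The scripts were tested on simulated data.

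Genes given library by library were, per injury comparison, the 2 largest rises and 2 largest falls that passed the threshold of 0.05, had no overlap and averaged 5 scaled RPKM or more in the higher group, and the 4 largest of each difference between bones. Hif1a, Pgam1, Pgam2, Eno1 and Eno3 were added by name, and of the other lists the largest rise or fall at a time, of which 1 gene is not reported here. Further genes were named to cover each role. The members and lists were chosen with earlier results of these data known. Alternatives were the RPKM as deposited, upper-quartile scaling, a pseudocount of 1, no filter, leaving out each library, and the authors' deposited comparisons.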

Additional observations from a re-analysis of the deposited data

Results flagged for a closer look

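Among 113 sets of 4 to 10 libraries checked for a single library far from the rest, 6 stood out, and chance flags about 1 in 20 sets, or 5.65 of 113. Slc2a1 was at 66.0 scaled RPKM in library 1 at 4 h after full fracture, against 43.2 to 48.5 in the other 4, and the same library had a chondrocyte marker sum of 689 against 67.4 to 80.8 in the others. Eno1 was at 20.3 in library 4 at 3 d after full fracture, against 14.3 to 15.4 in the others. Slc2a3 was at 6.31 in library 2 at 5 d after stress fracture, against 9.24 to 10.4, and P4ha1 at 23.5 in library 4 at 7 d, against 28.4 to 29.2. Ddit4 was at 24.4 in library 2 at 3 d after stress fracture, against 13.2 to 14.5, and at 104 in library 2 of the intact ulnas, against 9.18 to 26.2.

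The responses to full and to stress fracture are listed for 16 named results, the 4 largest called differences at each of the 4 shared times. Each has a test of the difference itself (femur change minus ulna change, limma). The number 16 follows from that rule, which took only differences with adjusted p under 0.05. At 4 h these were Slc2a1 (3.43), Adm (2.39), Pfkfb3 (2.01) and Hif1a (1.84). At 1 d they were Slc2a1 (2.21), Ldhb (-1.62), Eno1 (1.53) and Pfkl (1.499). At 3 d they were Ldhb (-2.21), Slc2a1 (1.61), Pgam2 (-1.58) and Eno3 (-1.47). At 7 d they were Aldoc (3.02), Slc2a1 (2.83), Hif1a (2.16) and Car9 (2.15).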

How the results depend on the processing

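No called member changed sign under any alternative, and of 280 recounts of members called, 261 were within 1.5 times the main count. Outside leaving out libraries, 3 counts moved. At 1 d after stress fracture the authors' deposited table called 8 members in place of 5, and without the filter on low values the ulna counts were 4 in place of 7 from 1 d to 3 d and 1 in place of 3 from 3 d to 5 d. Leaving out 1 library at a time gave 3 to 7 members at 1 d after stress fracture, 10 to 22 at 5 d and 9 to 20 at 7 d. It gave 3 to 7 from 4 h to 1 d, 4 to 10 from 1 d to 3 d, 1 to 3 from 3 d to 5 d and 0 to 1 from 5 d to 7 d in ulnas. The cause was not tested.

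Of 630 recomputed values of named genes, 626 kept direction and call, and the 4 that lost the call are given with the results. RPKM as deposited shifted the median of all genes to -0.15 at 4 h and -0.28 at 7 d after full fracture, and to -0.18 at 5 d after stress fracture. Leaving out intact femurs 1 and 2 and intact ulna 2, which stood apart in Ddit4, was chosen after seeing the data, as was leaving out libraries in the steps and differences, and the first moved no count by more than 1.5 times. No paired analysis was possible because the columns of the tables could not be tied to animals. Low reads limit Pgam1, Aldoc and Car9, with medians of 46.5, 36.0 and 46.0 per library.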
